A study of Mus musculus with 14 samples.

Results

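Of the genes of the TGF-β pathway, the 10 followed here encode the secreted ligands (Tgfb1, Tgfb2 and Tgfb3), the receptors (Tgfbr1, Tgfbr2 and Tgfbr3) and the latent TGF-β binding protein family with the cell-surface anchor of latent TGF-β (Ltbp1, Ltbp2, Ltbp3 and Lrrc32), called latency proteins here. They were chosen by symbol, and all 10 were present among the 23284 genes of each of 2 expression tables. That Lrrc32 is nearly absent from EpRas cells was known when the genes were chosen, so its values are given as a description without a test. EpH4 is an established line of mouse mammary gland epithelium. EpRas is a line derived from it and transformed with oncogenic H-Ras, so a difference between the lines compares 2 lines and not many transformants. The first table holds untreated EpH4 cells, EpH4 cells treated with TGF-β, untreated EpRas cells and EpRas cells treated with TGF-β, each group with 2 biological replicates. TGF-β was TGF-β3 protein at 1 ng/ml for 48 h. EpH4 cells were grown in 10% serum and EpRas cells in 4% serum in all of their groups, so that transformation and serum cannot be told apart. The second table holds EpRas cells transfected with a control siRNA (siNC), with siEtv4_1 and siEtv5_1 together (pair 1) or with siEtv4_2 and siEtv5_2 together (pair 2), untreated or treated with TGF-β, with 1 library per condition and thus without replicates.

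TGF-β is secreted as a latent complex, in which the propeptide of the ligand stays bound to the mature dimer. Latent TGF-β binding proteins (Ltbp1, Ltbp3) link this complex to the extracellular matrix, and Lrrc32 (also called GARP) presents it on the cell surface. Once released, often by integrins or proteases, the ligand binds the type II receptor Tgfbr2, which activates the type I receptor Tgfbr1, and Smad proteins carry the signal to the nucleus. Tgfbr3 (betaglycan) is a co-receptor that helps TGF-β2 in particular to reach the signaling receptors. In mammary epithelial cells TGF-β is known both to arrest growth and, with active Ras, to induce epithelial-mesenchymal transition.

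Expression levels are given as FPKM, fragments divided by transcript length and by library size, so levels of different genes can be set side by side. The relative depth of the libraries, read from the smallest steps between FPKM values, was 0.609 to 1.36 times that of the first untreated EpH4 library in the untransfected table and 1 to 1.74 times that of the untreated siNC library in the siRNA table. All 12 mammary epithelial markers examined reached 5 FPKM in at least 1 library of each table. Their summed level was 5689 to 7077 FPKM in untreated and 9655 to 10258 in TGF-β-treated EpH4 cells. In EpRas cells it was 4333 to 5553 and 2689 to 4593. The keratin Krt7 was the largest part of the sum in EpH4 cells, at 2550 and 3425 FPKM untreated and 5185 and 4941 with TGF-β. The markers did not all move with it. Elf3 in EpH4 cells was at 18.0 and 19.6 FPKM untreated and 11.6 and 11.9 with TGF-β. Ocln there was at 9.22 and 7.18 FPKM untreated and 5.21 and 4.56 with TGF-β. Krt19, another keratin, was listed at 0 throughout in EpH4 cells but ranged from 17.1 to 37.4 FPKM in untransfected EpRas cells. None of 5 endothelial markers reached 5 FPKM. Of 8 leukocyte and platelet markers, 2 (Cd68 and Csf1r) reached it in each table, at up to 7.13 and 6.23 FPKM. The summed level of these 8 was 2.51 to 2.87 FPKM in untreated EpH4, 8.003 to 10.0 in treated EpH4, 5.63 to 6.31 in untreated EpRas and 6.98 to 8.70 in treated EpRas cells, with Ptprc (CD45) and Pf4 at 0 in all of these. Of 7 fibroblast markers, Lum and Thy1 were listed at 0 throughout, but the summed level of the list was 214.6 and 239 FPKM in the TGF-β-treated EpH4 libraries against 4.61 to 25.8 FPKM in the other untransfected ones, of which the collagen gene Col1a1 made 200.04 and 223.5 FPKM. The part of these marker levels in the differences between the lines and with TGF-β given here was not tested. In the siRNA table the untreated libraries of siNC, pair 1 and pair 2 had Etv4 at 57.4, 11.6 and 27.9 FPKM and Etv5 at 8.85, 1.61 and 1.26 FPKM. The treated ones had Etv4 at 64.3, 12.6 and 18.9 FPKM and Etv5 at 5.34, 1.24 and 1.20 FPKM, so both targets were lower with both pairs.

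Of the 10 genes, those for the matrix binding protein Ltbp3 and for the receptor Tgfbr2 had the highest levels in untreated EpH4 cells. There the order by mean FPKM was Ltbp3 (104.1), Tgfbr2 (73.9), Ltbp2 (17.3), Ltbp1 (17.0), Tgfb1 (10.2), Tgfbr1 (7.28), Tgfb3 (4.31), Tgfb2 (4.31), Lrrc32 (1.66) and Tgfbr3 (0.484). In that order the libraries of Ltbp2 and Ltbp1 overlapped, as did those of Tgfb3 and Tgfb2, and the other neighbours were apart in both replicates. In untreated EpRas cells the order was Ltbp3 (138.6), Ltbp2 (33.9), Tgfbr2 (32.8), Ltbp1 (32.7), Tgfb1 (21.0), Tgfb3 (7.94), Tgfbr1 (4.12), Tgfbr3 (1.46), Tgfb2 (0.511) and Lrrc32 (0.0387). There, Ltbp2 overlapped Tgfbr2 and Tgfbr2 overlapped Ltbp1. Ltbp3 had the highest level of the 10 in all 4 groups, and Tgfb1 the highest among the ligands. Lrrc32, second from last in untreated EpH4 cells, came just after Tgfbr2 with 31.3 FPKM in TGF-β-treated EpH4 cells, where the libraries of the 2 genes overlapped.

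**Figure D1:**
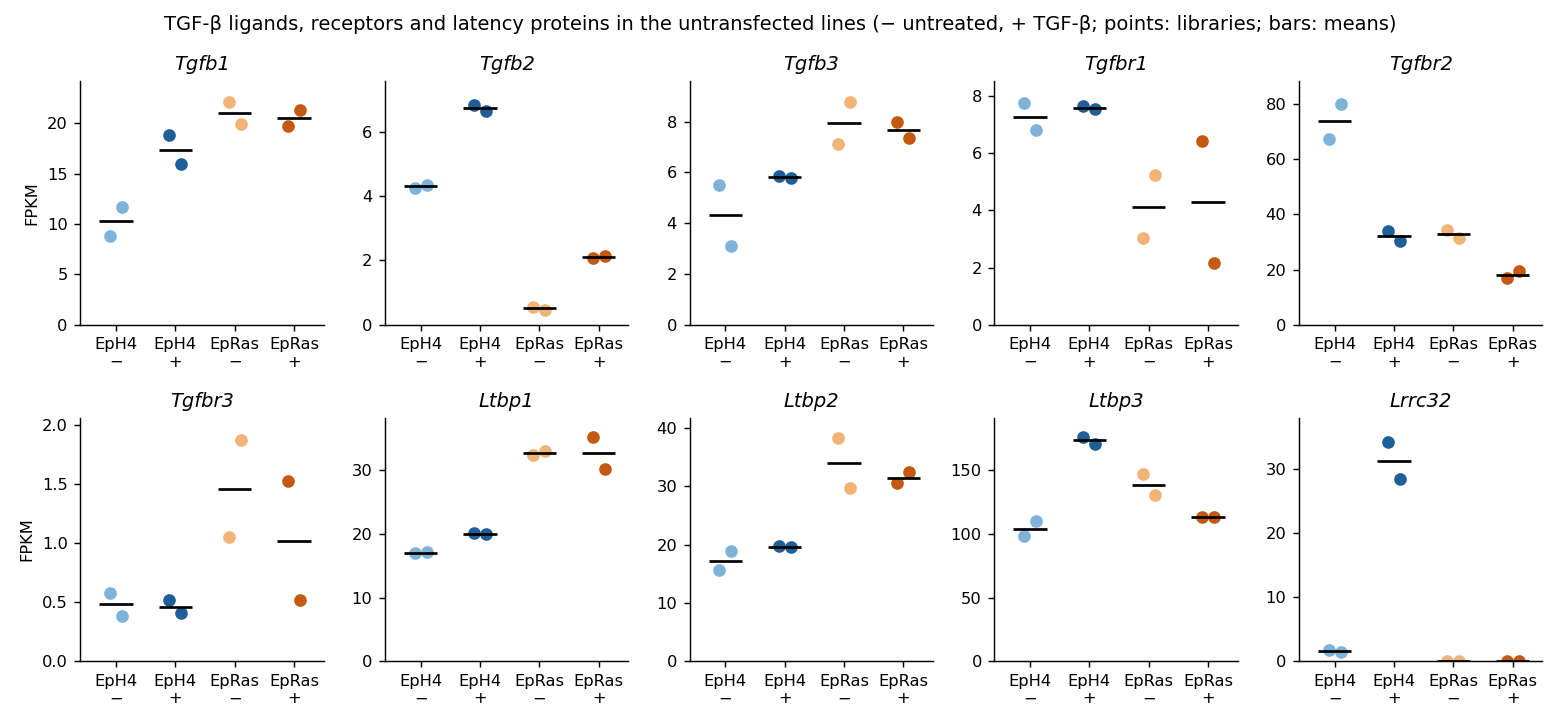
FPKM (linear axes starting at 0) of the 10 genes in the untransfected libraries, with a point for each library and a bar for the mean of 2 replicates, where − is untreated and + is TGF-β. Lrrc32 is high only in the 2 TGF-β-treated EpH4 libraries (34.1 and 28.5 FPKM), whereas Tgfbr2 is lower with TGF-β in both lines.

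Differences between groups of the untransfected cells were tested with limma on log2(FPKM + 1), and p-values were adjusted by the method of Benjamini and Hochberg for 9100 genes, those with 5 FPKM or more in at least 1 of the 8 libraries. Each test rests on 2 libraries a group. Adding 1 to the FPKM brings the differences of lowly expressed genes closer to 0. Of the 10 genes, 9 reached 5 FPKM. Tgfbr3, with at most 1.87 FPKM, did not and was not tested. Lrrc32 passed this filter only through the TGF-β-treated EpH4 libraries and is left out of the counts, which are over the other 8. Tgfb2 also passed it only through those libraries (6.83 and 6.66 FPKM) but is kept in the counts. It is among the genes called in the first 4 of the comparisons below. Between untreated EpRas and EpH4 cells, 3 of the 8 genes were higher and 2 lower at an adjusted p under 0.05, beside 17.6% of all genes tested (8.45% higher and 9.11% lower). In the presence of TGF-β, 2 were higher and 3 lower in EpRas cells, beside 21.3% of all genes (8.92% higher and 12.3% lower). TGF-β changed 3 of the 8 in EpH4 cells, 2 of them upward, beside 9.4% of all genes (6.48% higher, 2.91% lower). In EpRas cells it changed 2 of the 8, 1 in each direction, beside 3.82% of all genes (1.9% higher, 1.92% lower). A test of the response in EpRas minus that in EpH4 cells passed by limma for 0 of the 8, beside 0.802% of all genes (0.176% higher, 0.626% lower), while 3 of the 8, Tgfb1, Tgfb2 and Ltbp3, had an unadjusted p under 0.05, as did 10.9% of all genes. The libraries of the groups compared did not overlap for 8, 8, 7 and 3 of the 8 genes in the first 4 of these comparisons, where 61, 63, 60.6 and 39.4% of all genes did not. The median log2 differences of the 8 in these comparisons were 0.60, −0.19, 0.31, −0.043 and −0.25, where the medians over all genes tested lay between −0.03 and 0.00.

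**Figure D2:**
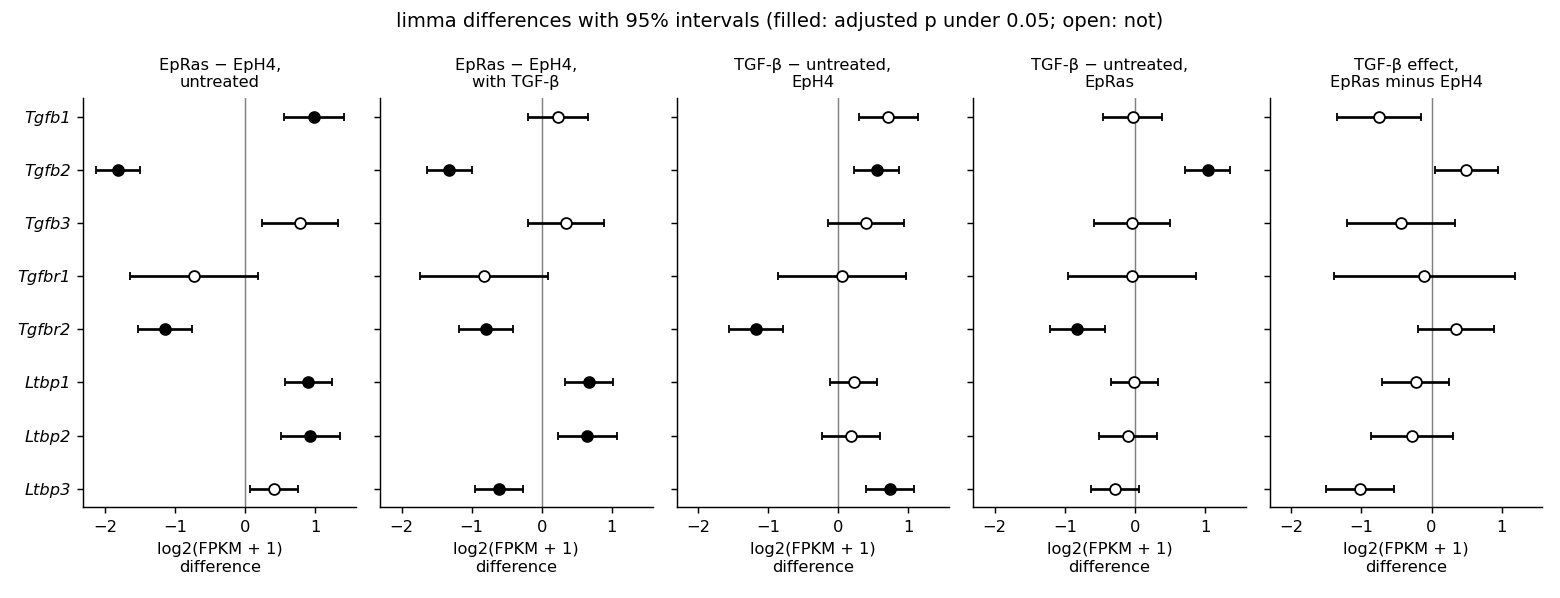
Differences in log2(FPKM + 1) for the 8 genes counted, from the limma fit over 8 libraries, with 95% intervals (not adjusted for the number of genes), where filled points have an adjusted p under 0.05. The 2 comparisons of EpRas with EpH4 cells have filled points on both sides of 0, and Tgfb2 and Tgfbr2 are filled for TGF-β in both lines. Tgfb2 passed the filter of 5 FPKM only through the TGF-β-treated EpH4 libraries.

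Among the ligands, Tgfb1 and Tgfb2 differed in opposite directions between the lines. Tgfb1 (chr7:25687002-25705077 of GRCm38.p6) encodes the ligand most widely expressed in epithelia. Its level was 8.82 and 11.7 FPKM in untreated EpH4 cells, 18.8 and 15.9 with TGF-β, 22.2 and 19.9 in untreated EpRas cells, and 19.7 and 21.3 in EpRas cells with TGF-β. Untreated EpH4 cells thus stood below the other 3 groups, with no overlap. In these bulk libraries, fewer cells with a transcript and less of it per cell cannot be told apart, here and for the genes below. Without TGF-β, Tgfb1 was 2.05-fold higher in EpRas cells (difference in log2(FPKM + 1) 0.98 ± 0.18 SE, n = 2 per group, adjusted p = 0.0108 by limma). The adjusted p was 0.00775 to 0.0716 over the alternatives and the call was lost without untreated EpH4 replicate 1 (0.0615) or untreated EpRas replicate 1 (0.0716). With TGF-β the log2 difference between the lines was 0.23 ± 0.18 (adjusted p = 0.400 by limma). In EpH4 cells the TGF-β-treated mean of Tgfb1 was 1.70-fold the untreated one, but the adjusted p of 0.0526 by limma missed the threshold (0.0410 to 0.328 over the limma alternatives). It passed with a trended variance (0.0410) and by the Tukey-Kramer test on FPKM (adjusted p = 0.0487). The interval of the difference in response between the lines was −1.35 to −0.15 on the log2 scale (adjusted p = 0.345 by limma).

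Tgfb2 (chr1:186622787-186709697) was the lowest of the ligands in EpRas cells. Its level was 4.25 and 4.36 FPKM in untreated EpH4 cells and 6.83 and 6.66 with TGF-β. In EpRas cells it was 0.556 and 0.465 FPKM untreated and 2.06 and 2.14 with TGF-β. For this gene the FPKM could be turned back into whole reads, which numbered 113 and 157, 131 and 190, 9 and 14, and 47 and 38 in the same libraries. None of the 4 groups overlapped another, and both lines were higher with TGF-β. Only the TGF-β-treated EpH4 libraries reached the 5 FPKM of the filter, so Tgfb2 entered the tests through them alone. Without TGF-β, Tgfb2 was 8.43-fold lower in EpRas than in EpH4 cells (log2 difference −1.81 ± 0.14, adjusted p = 0.000202 by limma), and with TGF-β 3.21-fold lower (−1.32 ± 0.14, adjusted p = 0.000611 by limma). Both differences stayed past the threshold in all alternatives of the limma fit. TGF-β increased Tgfb2 4.12-fold in EpRas cells (1.04 ± 0.14, adjusted p = 0.00692 by limma) and 1.57-fold in EpH4 cells (0.55 ± 0.14, adjusted p = 0.0496 by limma). The call in EpRas cells was lost without either untreated EpRas library (adjusted p = 0.0503 and 0.0623) and, with an adjusted p of 0.00149 to 0.121 over the alternatives, also when 5 was added to the FPKM (0.121) or when only the EpRas groups were fitted (0.116). That in EpH4 cells was close to the threshold, ranged from 0.0178 to 0.285, and was kept in 6 of 16 settings. For Tgfb2 the difference in response between the lines did not pass the test (0.49 ± 0.19, interval 0.04 to 0.94, adjusted p = 0.399 by limma).

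Tgfb3 (chr12:86056743-86079041) encodes the isoform that was added to the medium as protein. Its transcript was at 5.51 and 3.12 FPKM in untreated EpH4 cells, 5.85 and 5.78 with TGF-β, 7.11 and 8.78 in untreated EpRas cells, and 7.98 and 7.38 in EpRas cells with TGF-β. All 4 EpRas libraries were above all 4 EpH4 libraries. The difference without TGF-β, 0.78 ± 0.23 on the log2 scale, did not pass the test (adjusted p = 0.0580 by limma, 0.0231 to 0.229 over the alternatives), and passed it without untreated EpH4 replicate 1 (1.11, adjusted p = 0.0231). With TGF-β the difference was 0.35 ± 0.23 (adjusted p = 0.324 by limma). The 95% interval of the TGF-β difference in EpRas cells was −0.58 to 0.50.

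Of the receptors, Tgfbr2 was lower in EpRas than in EpH4 cells and lower with TGF-β than without it in both lines. Tgfbr2 (chr9:116087695-116175363) encodes the type II receptor, the first to bind TGF-β1 and TGF-β3. Its level was 67.5 and 80.2 FPKM in untreated EpH4 cells, 33.9 and 30.5 with TGF-β, 34.2 and 31.5 in untreated EpRas cells, and 16.8 and 19.6 in EpRas cells with TGF-β. The TGF-β-treated EpH4 cells and the untreated EpRas cells overlapped, and the other groups did not overlap these or each other. TGF-β decreased Tgfbr2 2.30-fold in EpH4 cells (log2 difference −1.17 ± 0.17, adjusted p = 0.00565 by limma), a call lost only without TGF-β-treated EpH4 replicate 2 (adjusted p = 0.0707) among 17 settings. In EpRas cells it decreased it 1.80-fold (−0.82 ± 0.17, adjusted p = 0.0412 by limma). This second call was held in 8 of 17 settings (adjusted p 0.0347 to 0.244), and was lost when any of 7 of the 8 libraries was left out. The 7 were all but TGF-β-treated EpRas replicate 2, and the decrease stayed at −0.72 to −0.88 without them. It was also lost by the Tukey-Kramer test on FPKM (adjusted p = 0.122). Without TGF-β, Tgfbr2 was 2.25-fold lower in EpRas cells (−1.14 ± 0.17, adjusted p = 0.00410 by limma, 0.00314 to 0.0355 over the alternatives). With TGF-β it was 1.77-fold lower (−0.79 ± 0.17, adjusted p = 0.0138 by limma). This last call was lost without TGF-β-treated EpH4 replicate 1 (adjusted p = 0.116) or 2 (0.0665), and by the Tukey-Kramer test on FPKM (0.138). The difference in response between the lines was 0.35 ± 0.23 (interval −0.20 to 0.90, adjusted p = 0.635 by limma).

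Tgfbr1 (chr4:47353222-47414926), the type I receptor kinase, had the largest SE of the 8 genes counted. It was at 7.76 and 6.80 FPKM in untreated EpH4 cells, 7.64 and 7.55 with TGF-β, 3.02 and 5.22 in untreated EpRas cells, and 6.43 and 2.15 in EpRas cells with TGF-β. These values rest on 249 and 296, 177 and 260, 59 and 190, and 177 and 46 reads. All EpRas libraries were below all EpH4 libraries, by 1.77-fold in the means both without and with TGF-β. Neither difference passed the test (−0.73 ± 0.39, adjusted p = 0.246, and −0.83 ± 0.39, adjusted p = 0.174, by limma), the second of which passed it without TGF-β-treated EpRas replicate 1 (−1.45, adjusted p = 0.0221). The TGF-β difference had an interval of −0.86 to 0.97 in EpH4 cells and of −0.96 to 0.86 in EpRas cells, so smaller differences were not detectable with these libraries.

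Tgfbr3 (chr5:107106567-107289629), the co-receptor, was the lowest of the receptors. It was at 0.582 and 0.386 FPKM in untreated EpH4 cells, 0.524 and 0.407 with TGF-β, 1.05 and 1.87 in untreated EpRas cells, and 1.53 and 0.523 in EpRas cells with TGF-β. This corresponds to 12 to 73 reads per library. Untreated EpRas cells were above untreated EpH4 cells in both replicates, 3.02-fold in the means, and with TGF-β the lines overlapped.

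The promoters of Tgfb2 and Tgfbr2 are shown because these 2 genes changed with TGF-β in both lines, in opposite directions. Of the 10 genes, 7 matched a start site in the RefSeq table (GRCm38.p6), with 9 start sites in all. Each window holds the 250 bases upstream of a start, 5′ to 3′ on the strand of the gene. The letters searched on both strands were TGANTCA (AP-1), CCGGAA and GGAAGT (ETS cores), TGTGGT (RUNX), and GTCTAGAC and CAGACA (Smad), none of which holds another, and capitals mark a match.
Tgfb2, chr1:186705990-186706239, minus strand: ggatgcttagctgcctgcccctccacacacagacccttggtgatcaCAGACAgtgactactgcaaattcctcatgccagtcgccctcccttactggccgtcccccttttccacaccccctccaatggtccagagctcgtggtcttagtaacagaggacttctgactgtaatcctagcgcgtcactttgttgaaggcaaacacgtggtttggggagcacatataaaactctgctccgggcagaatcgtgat
Tgfbr2, chr9:116175364-116175613, minus strand: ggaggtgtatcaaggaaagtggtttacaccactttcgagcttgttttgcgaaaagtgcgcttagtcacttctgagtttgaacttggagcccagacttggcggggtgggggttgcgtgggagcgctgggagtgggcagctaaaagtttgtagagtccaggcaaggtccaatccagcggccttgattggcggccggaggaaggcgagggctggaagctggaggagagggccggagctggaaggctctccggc
The Tgfb2 window held CAGACA once, 204 bases before the start, and the Tgfbr2 window held none of the 6. The start used for Tgfb2 lies within the annotated gene rather than at its outer end. Of all 32851 promoter windows, 17.1% held CAGACA, 12% CCGGAA, 19.7% GGAAGT, 14% TGTGGT, 6.75% TGANTCA and 0.167% GTCTAGAC. Among the 9 windows of the 7 genes, CAGACA was found in 3, each of the ETS cores in 1 and the RUNX letters in 1.

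Among the latency proteins, Ltbp1 and Ltbp2 were higher in EpRas cells and Lrrc32 lower, and with TGF-β Ltbp3 was lower in EpRas cells. Without TGF-β the difference in Ltbp3 did not pass by limma, and neither did its difference in response between the lines. Ltbp1 (chr17:75005480-75392512) encodes a binding protein that tethers the latent ligand to the matrix. It was at 16.9 and 17.1 FPKM in untreated EpH4 cells, 20.1 and 19.9 with TGF-β, 32.4 and 33.0 in untreated EpRas cells, and 35.1 and 30.1 in EpRas cells with TGF-β. All EpRas libraries were above all EpH4 libraries, 1.92-fold in the means without TGF-β (0.90 ± 0.14, adjusted p = 0.00620 by limma) and 1.63-fold with TGF-β (0.68 ± 0.14, adjusted p = 0.0153 by limma). The first call was kept in all 17 settings, and the second was lost without TGF-β-treated EpH4 replicate 1 (adjusted p = 0.105) or 2 (0.103), or with only the groups compared (0.0602). The TGF-β differences were 0.22 ± 0.14 in EpH4 and −0.01 ± 0.14 in EpRas cells, and neither passed the test.

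Ltbp2 (chr12:84783212-84876558) belongs to the same family but is known mainly as a component of microfibrils rather than as a carrier of TGF-β. It was at 15.6 and 18.9 FPKM in untreated EpH4 cells, 19.7 and 19.6 with TGF-β, 38.2 and 29.7 in untreated EpRas cells, and 30.5 and 32.4 in EpRas cells with TGF-β. As with Ltbp1, the EpRas libraries were all above the EpH4 libraries. The difference was 1.97-fold without TGF-β (0.93 ± 0.18, adjusted p = 0.0121 by limma) and 1.60-fold with it (0.65 ± 0.18, adjusted p = 0.0383 by limma). The first call was lost without replicate 1 of untreated EpH4 (adjusted p = 0.0728) or of untreated EpRas cells (0.0742), or with only the groups compared (0.0520). The second was lost without any of the 4 TGF-β-treated libraries (0.0772 to 0.176), with only the groups compared (0.0541), with the replicate block (0.0765) and by the Tukey-Kramer test on FPKM (0.0744).

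Ltbp3 (chr19:5740900-5758536), needed for secretion and matrix deposition of latent TGF-β, was at 98.1 and 110.1 FPKM in untreated EpH4 cells and at 176.4 and 170.6 with TGF-β. In EpRas cells it was at 147.0 and 130.2 FPKM untreated and at 113.2 and 113.6 with TGF-β. The EpH4 libraries were thus higher with TGF-β and the EpRas libraries lower, without overlap in either line. The increase in EpH4 cells, 1.67-fold, passed the test (0.73 ± 0.15, adjusted p = 0.0234 by limma), but was lost without any of the 4 EpH4 libraries (0.0755 to 0.182). The difference of −0.28 ± 0.15 in EpRas cells did not pass it (adjusted p = 0.419 by limma). The response in EpRas minus that in EpH4 cells was −1.02 ± 0.21 (interval −1.51 to −0.53), with an adjusted p of 0.106 by limma (0.0495 to 0.474 over the alternatives). With TGF-β, Ltbp3 was 1.53-fold lower in EpRas cells (−0.61 ± 0.15, adjusted p = 0.0251 by limma). This was lost without TGF-β-treated EpH4 replicate 1 (adjusted p = 0.156) or 2 (0.124), without TGF-β-treated EpRas replicate 1 (0.0537), with only the groups compared (0.0618) or with the replicate block (0.0590). Without TGF-β the difference was 0.41 ± 0.15 (adjusted p = 0.102 by limma, 0.0350 by the Tukey-Kramer test on FPKM).

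Lrrc32 (chr7:98489305-98501831), the cell-surface anchor of latent TGF-β, had the widest range of the 10 genes. Its level was 1.79 and 1.53 FPKM in untreated EpH4 cells, 34.1 and 28.5 with TGF-β, 0.0773 and 0 in untreated EpRas cells, and 0.0549 and 0.0706 in EpRas cells with TGF-β. In whole reads these were 38 and 44, 523 and 649, 1 and 0, and 1 and 1. The 4 EpRas libraries held 3 reads of Lrrc32 in all, against 82 in untreated and 1172 in TGF-β-treated EpH4 cells. In EpH4 cells the TGF-β-treated mean was 18.9-fold the untreated one, without overlap between the replicates, a difference of 3.60 on the log2(FPKM + 1) scale. In EpRas cells the difference was 0.03 on the same scale. Lrrc32 is known from regulatory T cells and platelets. In the libraries with 523 and 649 reads of it, of the 8 leukocyte and platelet markers Ptprc, Pf4 and Cd3e were at 0 FPKM, and the platelet genes Itga2b and Gp9 were at 1.09 and 1.37 and at 0.387 and 0 FPKM. Foxp3 was at 0 and 0.136, Cd68 at 0.293 and 2.75 and Csf1r at 6.23 and 5.74 FPKM there. The summed level of this list was higher there than in untreated EpH4 cells, as given above. The fibroblast list (2 of its 7 genes reaching 5 FPKM) was also highest there, at 239 and 214.6 FPKM, and the part of both lists in the level of Lrrc32 was not tested.

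For the 3 genes with the widest range between group means, the genes most like them over the 8 untransfected libraries were looked up among those tested. The likeness is given as Pearson's r of log2(FPKM + 1), as a description, since the 8 libraries are 2 each of 4 groups. For Lrrc32 these were Gm12824 (r = 0.995), Slc6a6 (0.993), a taurine transporter, and Scube3 (0.993). Slc6a6 had means of 48.8 and 173.1 FPKM in untreated and treated EpH4 cells and of 25.6 and 31.0 FPKM in EpRas cells. For Tgfb2 they were Mlxip (0.989), Gatsl2 (0.989) and the chemokine Cxcl16 (0.982), the last at 83.3, 101.3, 21.1 and 38.5 FPKM in the 4 groups in the same order. For Tgfbr2 they included Rassf8 (0.987) and Thsd4 (0.984). Rassf8 was at 30.1, 13.5, 16.2 and 8.40 FPKM.

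Other genes of the pathway were followed in 5 lists, and their counts are to be read beside the shares of all genes tested. These were 6.48% increased and 2.91% decreased by TGF-β in EpH4 cells, and 1.9% and 1.92% in EpRas cells. In EpRas against EpH4 cells 8.45% were higher and 9.11% lower without TGF-β, and 8.92% and 12.3% with it, and the response differed between the lines for 0.802%. Of the genes of latency and activation, 10 of the 17 present were tested. In EpH4 cells TGF-β increased 8 of them and decreased none (5 to 9 over the alternatives), beside the 6.48% of all genes, with a median log2 difference of 1.33. The largest were Mmp9, a gelatinase that can activate latent TGF-β, from 40.6 and 43.3 to 3933 and 3205 FPKM (6.37 ± 0.29, adjusted p = 6.1e-05 by limma), the protease Bmp1 (2.06 ± 0.23) and the membrane protease Mmp14 (1.69 ± 0.16). In EpRas cells TGF-β increased 2 of the 10 (1 to 3 over the alternatives), with a median log2 difference of 0.59. These were Mmp9 (3.95 ± 0.29, adjusted p = 0.000655 by limma) and Furin, which cleaves the TGF-β precursor (0.92 ± 0.17, adjusted p = 0.0301 by limma, 0.0241 to 0.171 over the alternatives). In either direction, 10 of the 10 in EpH4 and 8 in EpRas cells had an unadjusted p under 0.05 by limma. The shares of all genes were 23.9 and 15.8%. The response differed between the lines for Itgb5, an integrin subunit that with αv binds latent TGF-β. At an unadjusted p under 0.05 by limma it differed for 6 of the 10, beside 10.9% of all genes. Itgb5 was at 109.5 and 90.4 FPKM in untreated and 316 and 294 in treated EpH4 cells, and at 92.4 and 79.9 and at 73.8 and 85.8 in EpRas cells (−1.71 ± 0.24, adjusted p = 0.0287 by limma, 0.0218 to 0.200 over the alternatives). With TGF-β, 6 of the 10 were lower in EpRas cells (4 to 8 over the alternatives) and none higher (0 to 2 over the alternatives). The lower ones included Mmp9 (−2.99 ± 0.29), Itgb5 (−1.92 ± 0.17) and the integrin subunit Itgb6 (−1.84 ± 0.18). Itgb6 reached 5 FPKM only in TGF-β-treated EpH4 replicate 1 (5.86 FPKM) and entered the tests through it alone. The integrin subunit Itgb3 went the other way but was under the filter. It was at 0.550 and 1.05 FPKM in treated EpH4 cells and at 4.41 and 3.25 in treated EpRas cells. Without TGF-β, 3 were lower and 1 higher, the lower being the convertase Pcsk6 (−1.68 ± 0.20), thrombospondin Thbs1 (−1.15 ± 0.16) and Itgb6 (adjusted p = 0.00905 by limma, 0.00326 to 0.0687 over the alternatives).

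Of the receptor regulators, 17 of 23 were tested. In EpH4 cells 4 rose and 1 fell with TGF-β (2 to 6 rose over the alternatives), against 1 and 1 in EpRas cells. A difference in response between the lines passed by limma for 0 of the 17, beside 0.802% of all genes. It had an unadjusted p under 0.05 for 7 of the 17, beside 10.9% of all genes. Among those that rose in EpH4 cells was Vasn, which binds TGF-β outside the cell (1.72 ± 0.15). Pmepa1, which sequesters Smads, was among the increased in both lines (2.06 ± 0.20 in EpH4 and 1.17 ± 0.20 in EpRas cells). Eng, the endoglin co-receptor, was lower in EpRas cells without (−1.97 ± 0.26) and with TGF-β (−3.12 ± 0.26), at 45.2 and 59.1 FPKM in untreated EpH4 and 14.8 and 10.4 in untreated EpRas cells. Dab2, an adaptor in receptor endocytosis, was higher in EpRas cells without (1.51 ± 0.15) and with TGF-β (1.78 ± 0.15). In all, 2 of the 17 were higher and 2 lower in untreated EpRas cells, and 2 higher and 3 lower with TGF-β. Of the 10 other type I and type II receptors, 4 were tested. For a difference in response between the lines 0 of the 4 passed, with or without adjustment of the p-value. The type I receptor Acvr1 was increased by TGF-β in EpH4 (1.05 ± 0.18) and EpRas cells (1.09 ± 0.18), where Tgfbr2 was decreased, and was higher in EpRas cells without (0.80 ± 0.18) and with TGF-β (0.84 ± 0.18). The activin receptor Acvr1b was lower in both (−0.66 ± 0.18 and −0.78 ± 0.18). Of the Smads and co-regulators, 8 of 10 were tested, and 0 of the 8 passed for a difference in response between the lines. For 3 of the 8 the unadjusted p by limma was under 0.05. TGF-β increased 3 in EpH4 cells, the inhibitory Smad7 (1.39 ± 0.20) and the corepressors Skil (1.03 ± 0.18) and Ski (0.69 ± 0.15), and 1 in EpRas cells, Skil (0.84 ± 0.18, adjusted p = 0.0472 by limma). Between the lines Ski was higher in untreated EpRas cells (0.70 ± 0.15), and the inhibitory Smad6 was lower in EpRas cells with TGF-β (−1.21 ± 0.24). The calls named for Eng and Dab2 between the lines and for Pmepa1 and Vasn in EpH4 cells were kept in all limma alternatives, and the others were not. In EpRas cells those of Pmepa1, Acvr1 and Skil for TGF-β were kept in 8, 9 and 4 of 16 alternatives, with adjusted p up to 0.195, 0.184 and 0.273 by limma. In EpH4 cells those of Smad7, Acvr1, Skil and Ski were kept in 15, 12, 12 and 9 of 16 (adjusted p up to 0.0712, 0.118, 0.118 and 0.262 by limma). Between the lines, the call of Acvr1 was kept in 9 of 16 without and 13 of 16 with TGF-β, that of Acvr1b in 3 and 10 of 15, that of Ski in 11 of 16 and that of Smad6 in 12 of 15, with adjusted p up to 0.219 by limma. Of 16 established TGF-β target genes tested, 11 rose and 1 fell in EpH4 cells (4 to 11 rose over the alternatives). In EpRas cells 6 rose and 2 fell (2 to 6 rose). An unadjusted p under 0.05 by limma was found for 12 of the 16 in EpH4 and 14 in EpRas cells. The shares of all genes were 23.9 and 15.8%. The median log2 differences of the 16 were 1.24 in EpH4 and 0.89 in EpRas cells. Ctgf, a matrix-associated growth factor, rose in both lines (4.18 ± 0.20 in EpH4 and 2.58 ± 0.20 in EpRas cells), and Id2, an inhibitor of differentiation, fell by 2.06 ± 0.24 in EpRas cells (adjusted p up to 0.0670 by limma over the alternatives). Between the lines, 2 of the 16 were lower in untreated EpRas cells, and 2 were higher and 6 lower with TGF-β. The response differed between the lines for 0 of these 16 at an adjusted p under 0.05 by limma (0 to 2 over the alternatives), and for 7 at an unadjusted p under 0.05, beside 10.9% of all genes.

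**Figure D3:**
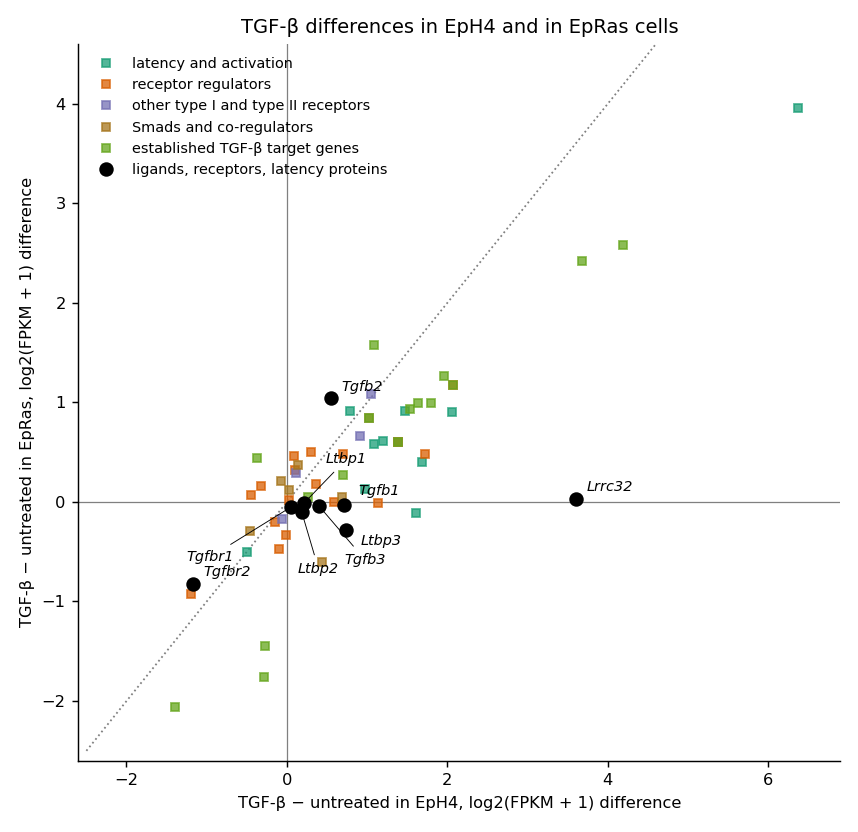
TGF-β-treated minus untreated in EpH4 cells (horizontal) and in EpRas cells (vertical), as differences in log2(FPKM + 1) with 2 libraries per group, for the 9 genes past the filter (black) and 5 lists of pathway genes (coloured squares, some in more than 1 list). The dotted line marks equal differences, and Lrrc32 lies at 3.60 and 0.03, away from it, while Tgfb2 and Tgfbr2 lie on the same side of 0 in both lines.

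In the siRNA libraries no replicates were available, so a gene was counted as past the fold only if both pairs differed from siNC by at least 1.5-fold in the same direction on FPKM + 1. Of the 10 genes, 7 reached 5 FPKM in this table, while Tgfb2, Tgfbr3 and Lrrc32 did not. Without TGF-β 0 of the 7 were past the fold, beside 14.2% of the 9094 genes tested (6.74% higher, 7.41% lower). With TGF-β 1 of the 7 was, Tgfb3, on the lower side, beside 12.5% of all genes (5.65% higher, 6.87% lower). With pair 1 alone 2 of the 7 were past the fold without TGF-β and 3 with TGF-β, beside 25.3 and 25.2% of all genes. In a limma fit to the 6 libraries with additive effects of knockdown and TGF-β, where the spread between conditions takes the place of replicates, 0 of the 7 passed an adjusted p of 0.05 for the knockdown (beside 2.12% of all genes, 0.77% higher and 1.35% lower), and 0 for TGF-β (beside 2.5%, 1.61% higher and 0.891% lower). At an unadjusted p under 0.05, 0 of the 7 passed for the knockdown and 2, Ltbp1 and Ltbp2, for TGF-β, beside 22.7 and 17.8% of all genes. The TGF-β-treated siNC library was the deepest of the 6. Its summed levels of the endothelial markers (2.01 FPKM, with Kdr, Tek and Emcn under 0.1) and of the leukocyte and platelet markers (15.6 FPKM, with Ptprc at 0) were above those of the other 5 libraries (0.0347 to 0.585 and 3.95 to 8.58 FPKM), and Cdh5 (1.80 FPKM), Cd68 (6.52), Csf1r (5.01) and Itga2b (3.78) made most of them. The fibroblast markers summed to 20.4 and 33.8 FPKM with pair 1, of which Col1a1 made 14.3 and 27.7, against 4.42 to 10.4 in the other 4 libraries. The part of these markers in the differences from siNC was not tested. In the same fit, beside 1.61% of all genes, TGF-β increased 4 of the 9 genes of latency and activation tested (1 to 4 over the alternatives), 1 of 17 receptor regulators, 1 of 4 other receptors, 2 of 8 Smads and co-regulators and 7 of 16 target genes (1 to 8), with Mmp9 at 5.00 ± 0.35 and Timp1 at 1.92 ± 0.15 (adjusted p up to 0.135 by limma over the alternatives), and decreased none. For the knockdown 0 genes of these 5 lists passed by limma, and at an unadjusted p under 0.05 there were 2 of 9, 4 of 17, 2 of 4, 2 of 8 and 4 of 16 in the same order, beside 22.7% of all genes.

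In untreated cells Tgfb3 was at 10.1 FPKM with siNC, 5.29 with pair 1 and 11.5 with pair 2, and in treated cells at 20.5, 6.04 and 10.5 FPKM. With TGF-β both pairs were thus lower, at 29.5% and 51.1% of siNC, while without it only pair 1 was. The 95% intervals that Cuffdiff gives for these values were apart between siNC and pair 1 with TGF-β and overlapped for pair 2. With 2-fold in place of 1.5-fold Tgfb3 was no longer past the fold. In the model its knockdown term was −0.79 ± 0.38 (adjusted p = 0.271 by limma, 0.107 to 0.573 over the alternatives). TGF-β-treated cells had 2.03 times the untreated level of Tgfb3 with siNC, 1.14 times with pair 1 and 0.910 times with pair 2. In untransfected EpRas cells, in the other table, that ratio was 0.966, with overlapping libraries.

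Tgfb2, at a low level, was above siNC with both pairs in the presence of TGF-β while without TGF-β it was below siNC with pair 2 and close to it with pair 1. Its untreated level was 0.506 FPKM with siNC, 0.460 with pair 1 and 0.140 with pair 2, and its level with TGF-β was 0.872, 3.43 and 2.91 FPKM. In reads these were 17, 21 and 6, and 51, 159 and 121. With TGF-β the level was 3.93 times that of siNC with pair 1 (95% exact interval 2.85 to 5.50) and 3.34 times with pair 2 (2.39 to 4.73), where the intervals cover counting error between single libraries only. The wider intervals of Cuffdiff overlapped. Tgfb2 was below the filter of 5 FPKM, and without the filter it was past the fold on the higher side with TGF-β. Without the filter, 9.41% of 15608 genes were past the fold in either direction with TGF-β. TGF-β-treated cells were above untreated ones with siNC, pair 1 and pair 2, as in untransfected EpRas cells. Tgfb1 was at 17.6, 25.7 and 22.9 FPKM without and 24.2, 26.9 and 28.2 FPKM with TGF-β, higher with both pairs but by less than 1.5-fold.

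**Figure D4:**
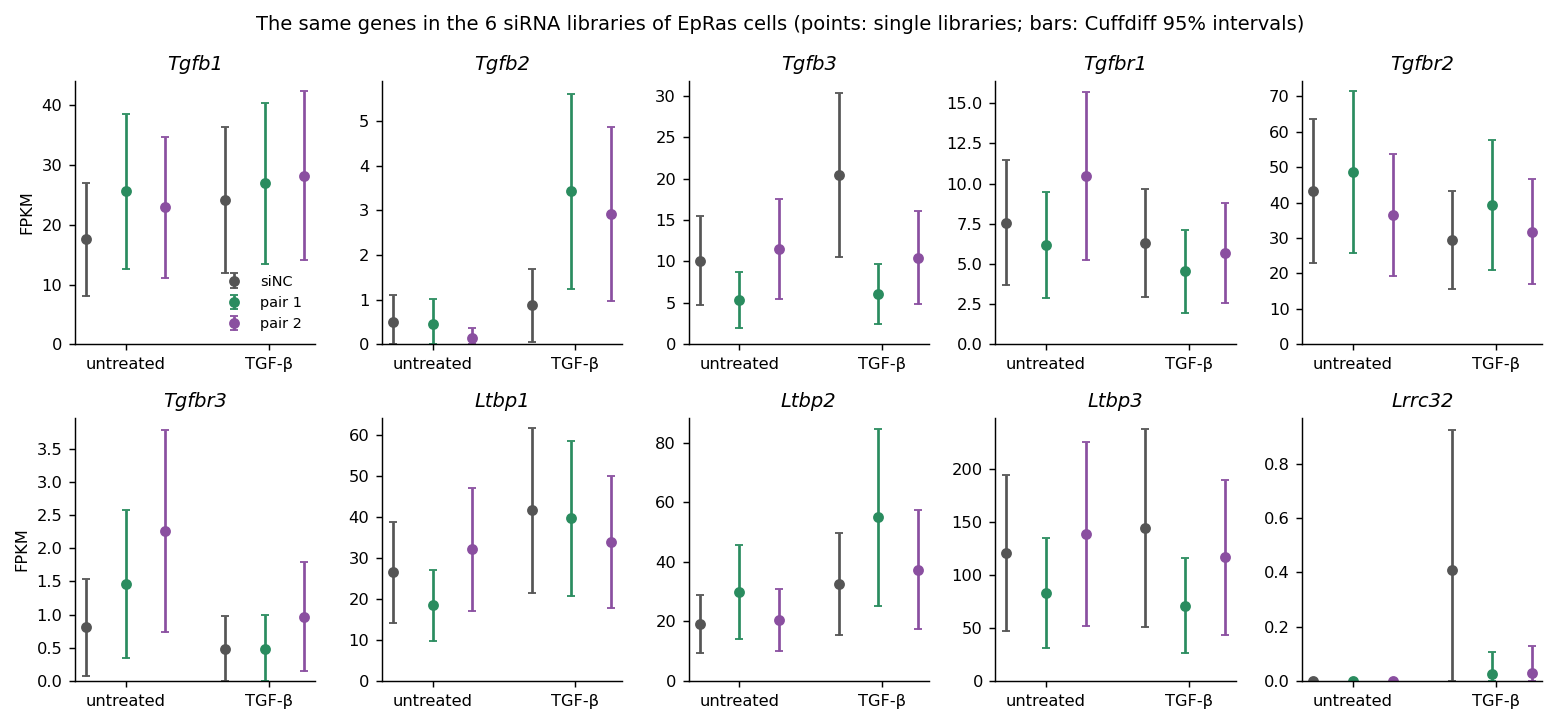
FPKM (linear axes from 0) of the 10 genes in the siRNA libraries of EpRas cells, 1 library per point, with the 95% interval given by Cuffdiff, for siNC, pair 1 and pair 2 without and with TGF-β. With TGF-β, Tgfb3 is highest with siNC (20.5 FPKM) and Tgfb2 lowest with siNC (0.872 FPKM), and most of the intervals overlap.

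None of the receptors was past the fold with both pairs. With siNC, pair 1 and pair 2, Tgfbr2 had levels of 43.1, 48.6 and 36.4 FPKM untreated and of 29.5, 39.3 and 31.8 FPKM with TGF-β. It was lower with TGF-β in all 3 siRNA conditions, by 1.46-, 1.24- and 1.15-fold, as were 20.7% of all genes (model −0.34 ± 0.18, adjusted p = 0.398 by limma). Tgfbr1 was at 7.56, 6.17 and 10.5 FPKM without and 6.31, 4.54 and 5.68 FPKM with TGF-β, and was also lower with TGF-β in all 3. Tgfbr3 had 0.805, 1.46 and 2.26 FPKM untreated and 0.476, 0.484 and 0.968 FPKM treated, on 29 to 125 reads.

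Of the latency proteins, Ltbp1 and Ltbp2 were higher with TGF-β in all 3 siRNA conditions, as were 23.5% of all genes. Ltbp2 was at 19.1, 29.8 and 20.3 FPKM without and 32.6, 54.9 and 37.3 FPKM with TGF-β. Its TGF-β term was 0.81 ± 0.22 (adjusted p = 0.136 by limma, 0.116 to 0.253 over the alternatives), whereas in untransfected EpRas cells the difference was −0.10 ± 0.18. Ltbp1 was at 26.4, 18.4 and 32.1 FPKM without and 41.5, 39.6 and 33.9 FPKM with TGF-β. Ltbp3 was at 120.8, 83.1 and 138.9 FPKM without and 144.6, 71.1 and 116.6 FPKM with TGF-β, so pair 1 was the lowest in both and pair 2 was not. Lrrc32 was listed at 0 without TGF-β in all 3 conditions, which allows up to 0.0823 to 0.112 FPKM (3 reads). With TGF-β it was at 0.407 FPKM with siNC (19 reads), and at 0.0270 and 0.0301 FPKM with pairs 1 and 2 (1 read each). The siNC library with 19 reads was the deepest and had the highest summed levels of the leukocyte and platelet and of the endothelial markers. Itga2b (3.78 FPKM) and Cdh5 (1.80 FPKM) were highest there. However, Gp9 (0.127 FPKM) and Pecam1 (0.152 FPKM) were lower there than in the untreated siNC library (0.442 and 0.265 FPKM). The part of depth and of these markers in the level of Lrrc32 was not tested.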

How the data were processed

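Cells were sequenced as directional poly(A) libraries on an Ion Proton. Per the submitters' processing notes, TopHat2 2.0.11 with Bowtie2 2.2.2.2 and Cufflinks 2.2.0 were used with the mouse build mm10, and the deposited FPKM values came from 2 separate Cuffdiff runs by the authors, 1 for the untransfected and 1 for the siRNA libraries. Tests were therefore made within a table only. Genes marked as not OK (3 and 2) and those under 5 FPKM in all libraries were left out, which kept 9100 and 9094 genes. Values were transformed as log2(FPKM + 1) and tested with limma 3.58.1 in R 4.3.3, all 4 groups sharing 1 estimate of the spread, with Benjamini-Hochberg adjustment. Other steps used Python 3.11.15 with scipy 1.17.1. Whole reads were recovered for members where FPKM steps gave whole numbers within 0.005. The fit was tested on simulated data with known changes. Named in the text are the 10 genes, up to 3 called genes with the largest difference per list and comparison, and the 3 genes most like each of the 3 members with the widest range. Etv4, Etv5 and some of the cell type markers are named as well. A few results that this rule covers are not reported here. The members and lists were chosen with earlier results of these data known.

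Alternatives were another pseudocount (0.1 or 5), no filter or a mean of at least 10 FPKM, median-of-ratios scaling, only the groups compared, a trended variance, a replicate block, the Tukey-Kramer test on FPKM, a 2-fold threshold for the siRNA libraries, and leaving out each library or siRNA pair. The median-of-ratios factors of the libraries were 0.993 to 1.014, so that alternative could move the values only a little from the main fit. Promoter windows and positions are from RefSeq (GRCm38.p6). Intervals from reads cover counting error only.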

Additional observations from a re-analysis of the deposited data

Results flagged for a closer look

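The difference between treated and untreated cells in Lrrc32 was 3.56 lower in EpRas than in EpH4 cells on the log2(FPKM + 1) scale (−3.56, EpRas minus EpH4, n = 2 per group). It stood out because both treated EpH4 libraries (34.1 and 28.5 FPKM) were above both untreated ones (1.79 and 1.53 FPKM), while the EpRas libraries held at most 1 read each. The near absence of Lrrc32 from EpRas cells was known when the genes were chosen, and the gene passed the minimum of 5 FPKM only through the treated EpH4 libraries, so the value is a description and no p-value is given for it.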

How the results depend on the processing

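Alternative values for single genes were tallied for the genes tested, which did not include Lrrc32 and Tgfbr3, nor Tgfb2 in the siRNA libraries. Of these values, 656 kept direction and side of the threshold, 53 lost the call, 6 gained it and 18, none of them called, changed sign. The number of the 8 genes called between untreated lines, 5 in the report, was 3 to 5 when 1 library was left out, the lowest without untreated EpRas replicate 1. With TGF-β, also 5 in the report, it was 2 with only the groups compared, 3 with the replicate block, 3 by the Tukey-Kramer test and 1 to 5 without 1 library, the lowest without either TGF-β-treated EpH4 library. For TGF-β in EpH4 cells, 3 in the report, it was 1 with the replicate block and 0 to 3 without 1 library, at most 1 without any of the 4 EpH4 libraries and 0 without TGF-β-treated replicate 2. For TGF-β in EpRas cells, 2 in the report, it was 1 with a pseudocount of 5, 1 at a mean of at least 10 FPKM, 0 with only the groups compared, 1 with the replicate block, 1 by the Tukey-Kramer test and 0 to 2 without 1 library, the lowest without either untreated EpRas library. For the difference in response, 0 in the report, it was 1 with a pseudocount of 5, which was Ltbp3. For the siRNA libraries the number past the fold was 2 without TGF-β and 3 with TGF-β when pair 2 was left out. With TGF-β it was 0 at 2-fold and 2 with no filter, the last beside 9.41% of 15608 genes. Where no fewer samples or genes account for a change, the cause was not tested.

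Among differences that did not pass the test, signs changed as follows. When 1 library was left out, the TGF-β difference in EpH4 cells was −0.027 to 0.14 for Tgfbr1, and that in EpRas cells −0.11 to 0.039 for Tgfb1, −0.17 to 0.10 for Tgfb3, −0.67 to 0.57 for Tgfbr1, −0.11 to 0.10 for Ltbp1 and −0.27 to 0.081 for Ltbp2. The difference in response of Tgfbr1 was −0.72 to 0.51. The TGF-β difference in EpRas cells was 0.167 FPKM for Tgfbr1 by the Tukey-Kramer test and 0.0028 for Ltbp1 with median-of-ratios scaling. Without pair 1 the knockdown term was 0.14 for Tgfbr1 and −0.066 for Tgfbr2, and the TGF-β term of Ltbp3 was 0.0038 without pair 1 and 0.018 without pair 2.

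Same-numbered replicates did not deviate together (r = −0.347 to 0.0785 across genes), so the numbers were not taken as pairs. With the replicate block the adjusted p by limma was 0.0765 for Ltbp2 and 0.0590 for Ltbp3 between the lines with TGF-β, 0.116 for Tgfb2 and 0.0616 for Ltbp3 for TGF-β in EpH4 cells and 0.0975 for Tgfbr2 in EpRas cells, and no other call of the 10 genes changed. Over all genes tested, the 1598, 1935, 855, 348 and 73 genes called in the 5 comparisons became 880, 1092, 559, 225 and 24 at a mean of at least 10 FPKM, and 733 to 2064, 822 to 2384, 239 to 1085, 127 to 413 and 10 to 127 without 1 library. The block gave 547, 222 and 31 in the last 3. For TGF-β in EpRas cells the count was 45 with only the groups compared, and for the difference in response it was 45 with a trended variance and 117 without a filter. In the additive siRNA fit, 193 and 227 genes became 42 and 72 without a filter, 0 and 6 without pair 1, and 100 and 24 without pair 2. Read counts limit Tgfbr3 (12 to 125 reads) and Lrrc32 in EpRas cells (at most 19 reads).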
